A study of Mus musculus with 24 samples.

Results

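Zbtb32 is the gene of a transcriptional repressor of the BTB zinc finger family, also described under the names ROG, PLZP and FAZF. It was followed here across mouse spleen dendritic cells through the single probe set that the array annotation assigns to Zbtb32 alone, chosen by that name and by no measured value. It is 1 of the 19938 genes with a probe set of a single symbol and 1 of the 11228 genes tested. Its value lay above the array's own median on 24 of 24 arrays, so that it did not enter the test through 1 group.

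Proteins of this family carry a BTB domain, through which they form dimers and recruit corepressors, and zinc fingers that bind DNA. Zbtb32 is known from activated lymphocytes. In T cells it was described as a repressor of GATA3 that restrains proliferation and cytokine production. It was also described as induced in natural killer (NK) cells. In B and plasma cells it was described as acting with the repressor encoded by Prdm1 on the MHC class II transactivator gene Ciita. Partners described for the protein include the Fanconi anaemia protein encoded by Fancc and the thioredoxin-interacting protein encoded by Txnip.

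The RNA came from conventional dendritic cells (cDC), cells that take up and present antigen, sorted as CD11c+ cells of the CD8+ or the CD11b+ subset from collagenase-digested spleens of female mice aged 8 to 10 weeks. Donor mice were NOD/ShiLt (NOD), in which diabetes arises spontaneously through autoimmunity, or the control strain C57BL/6 (B6). An injection of PBS or of CpG-A, a DNA oligonucleotide that Toll-like receptor 9 senses, preceded the sort by 12 h. Crossing subset, strain and injection gives 8 groups of 3 arrays, 24 in all. The labels do not say whether the 3 arrays of a group came from separate mice or from pools, so p-values reflect variation among these samples alone, part or all of which can be technical.

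Values are deposited log2 expression values, and a difference of 1 on this scale is a doubling. Array medians lay between 5.79 and 5.87, and precision is set by having 3 arrays per group. The sort markers followed the labels: Cd8a lay between 10.99 and 11.71 in the CD8+ groups and between 5.04 and 8.81 in the CD11b+ groups. Itgam, the gene of CD11b, lay between 4.45 and 5.39 in the CD8+ groups and between 6.61 and 9.03 in the CD11b+ groups. Itgax, the gene of CD11c, lay between 8.34 and 11.32 throughout. A list of 20 measured genes stimulated by type I interferon rose in full after CpG in each subset of each strain, with a median difference between 3.05 and 4.33. In sorted bulk RNA, fewer cells of a type and less RNA per cell cannot be told apart.

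RefSeq gives 2 start sites for Zbtb32 on mouse chromosome 7, on the minus strand, in the build GRCm38.p6. The windows from 250 bases before to 50 bases after each start are shown because they are the regulatory sequence nearest to the transcripts measured. The first window, at chr7:30598860-30599159, holds 4 copies of CCAAT, the box bound by the general factor NF-Y, which are in capitals. They begin at bases 107, 137, 195 and 227, counted from 1 at the 5′ end. The second, at chr7:30592893-30593192, holds none.
Zbtb32 window 1: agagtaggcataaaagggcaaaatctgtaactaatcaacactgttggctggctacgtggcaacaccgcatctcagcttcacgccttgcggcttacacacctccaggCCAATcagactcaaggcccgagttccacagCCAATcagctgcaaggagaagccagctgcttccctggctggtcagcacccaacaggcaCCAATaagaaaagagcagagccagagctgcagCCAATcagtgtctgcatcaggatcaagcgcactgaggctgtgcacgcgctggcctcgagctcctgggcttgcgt
Zbtb32 window 2: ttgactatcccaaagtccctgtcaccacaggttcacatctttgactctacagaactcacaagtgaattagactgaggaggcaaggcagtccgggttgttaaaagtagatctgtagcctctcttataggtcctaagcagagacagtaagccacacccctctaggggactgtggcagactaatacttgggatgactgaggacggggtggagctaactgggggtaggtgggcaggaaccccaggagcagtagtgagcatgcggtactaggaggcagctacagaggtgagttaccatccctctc
Of 32851 RefSeq windows of this length, 37.4% hold CCAAT on either strand and 1.06% hold at least 4. Other motifs were searched on both strands. The STAT-like motif TTCNNNGAA occurs in 8.3% of all windows and the T-box motif AGGTGTGA in 1.28%. The letters of the TATA box searched, TATAAA, occur in 13.6% of them. The motif of the AP-1 family of factors, spelled TGANTCA, occurs in 7.81%. None of them matched in either Zbtb32 window, which says only that these letters are not in these 300 bases.

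Zbtb32 was low in 7 groups and raised in CpG-treated B6 CD11b+ cDC. In CD8+ cDC from B6 mice it was 6.29, 6.14 and 6.09 after PBS and 6.76, 6.16 and 6.45 after CpG. In CD8+ cDC from NOD mice it was 5.98, 6.47 and 6.23 after PBS and 6.67, 6.56 and 6.48 after CpG. All 12 CD8+ arrays therefore lay below 7, close above the array medians.

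In CD11b+ cDC from B6 mice Zbtb32 was 6.43, 6.29 and 6.49 after PBS and 7.77, 8.28 and 7.2 after CpG. In CD11b+ cDC from NOD mice it was 6.29, 6.41 and 7.13 after PBS and 6.27, 6.61 and 7.4 after CpG. The B6 groups did not overlap, whereas in NOD replicate 3 stood above the other 2 arrays under either injection. That array after CpG (7.4) was higher than the lowest of the CpG-treated B6 arrays (7.2).

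**Figure D1:**
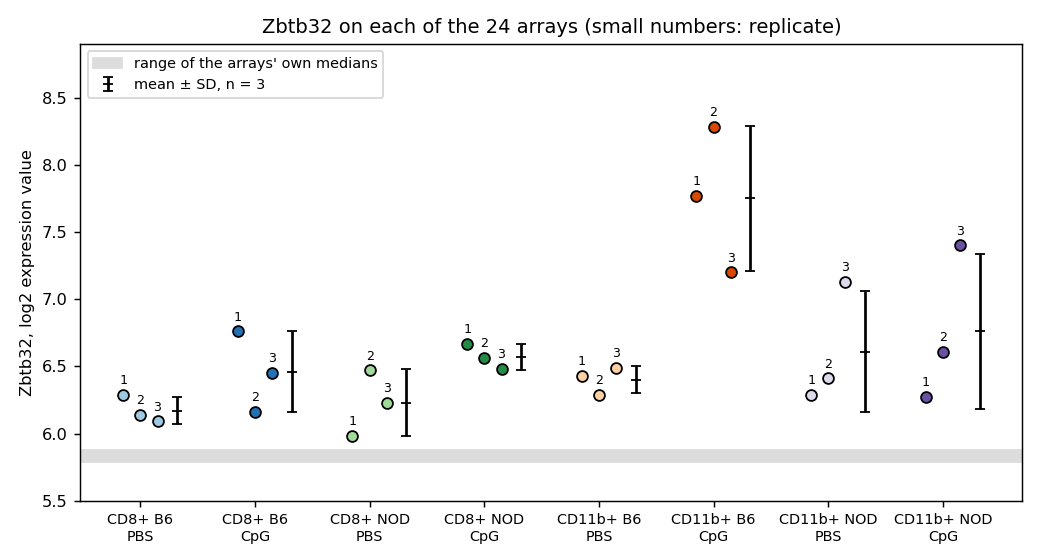
Log2 expression value of Zbtb32 (vertical axis) on each array, by group (horizontal axis), with the replicate number above each point, the mean ± SD of 3 arrays beside it and the range of the array medians as a grey band. The 3 arrays of CpG-treated B6 CD11b+ cDC sit between 7.2 and 8.28, and replicate 3 of the NOD CD11b+ groups sits at 7.13 and 7.4.

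By group mean, Zbtb32 ran from 6.17 ± 0.1 (SD, n = 3) in PBS-treated B6 CD8+ cDC through 6.23 ± 0.25 (PBS, NOD CD8+), 6.4 ± 0.1 (PBS, B6 CD11b+), 6.46 ± 0.3 (CpG, B6 CD8+) and 6.57 ± 0.1 (CpG, NOD CD8+). Next came 6.61 ± 0.45 (PBS, NOD CD11b+), 6.76 ± 0.58 (CpG, NOD CD11b+) and 7.75 ± 0.54 (CpG, B6 CD11b+). The ranges of neighbouring groups overlapped at each of these 7 steps. Of those neighbours that were compared by a test, only the last pair passed it. The pooled SD of Zbtb32 within groups was 0.36, against a median of 0.18 over all genes tested, and 2.89% of genes varied more.

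After CpG, Zbtb32 rose in B6 CD11b+ cDC by 1.35 ± 0.26 (SE, n = 3 per group, limma adjusted p = 0.000214), which is 2.54-fold, with a 95% confidence interval from 0.81 to 1.88. All treated arrays lay above all controls, as for 20.4% of the genes tested, and 15.9% of genes were called higher in this comparison. A larger difference in either direction was found for 4.84% of genes. Paired by replicate number the differences were 1.34, 1.99 and 0.71, and leaving out each array in turn gave 1.08 to 1.62 with every call kept.

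In the other 3 comparisons of CpG with PBS, Zbtb32 did not pass the test. The difference was 0.15 ± 0.26 in NOD CD11b+ cDC (95% confidence interval -0.39 to 0.68, limma adjusted p = 0.781), where 9.70% of genes were called higher (1089 higher and 643 lower, or 1117 and 391 with each array centred on its median). It was 0.29 ± 0.26 in B6 CD8+ cDC (-0.25 to 0.82, limma adjusted p = 0.352; 21.1% of genes called higher). In NOD CD8+ cDC it was 0.34 ± 0.26 (-0.19 to 0.87, limma adjusted p = 0.308; 15.1% called higher), although the treated arrays all lay above the controls there, as for 17.4% of genes. Each of these intervals includes a rise of 0.5, so that a response of that size remains possible in any of the 3.

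Between strains, Zbtb32 was lower in NOD than in B6 CD11b+ cDC after CpG by a log2 difference of -0.99 ± 0.26 (95% confidence interval -1.52 to -0.46, limma adjusted p = 0.00673), where 9.22% of genes were called lower. The groups overlapped. The call ended without replicate 2 of the CpG-treated B6 arrays (-0.72, limma adjusted p = 0.0586) and without replicate 1 of the CpG-treated NOD arrays (-0.74, limma adjusted p = 0.0536). The NOD minus B6 difference was 0.21 ± 0.26 in CD11b+ cDC after PBS, and 0.06 ± 0.26 after PBS and 0.11 ± 0.26 after CpG in CD8+ cDC, with limma adjusted p of 0.836, 0.987 and 0.811. Of all genes, 5.59%, 3.62% and 20.2% were called in these comparisons in either direction.

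Between subsets, Zbtb32 was lower in CD8+ than in CD11b+ cDC of CpG-treated B6 mice, by -1.29 ± 0.26 on the log2 scale (95% confidence interval -1.82 to -0.76, limma adjusted p = 0.000405), and 24.5% of genes were called lower. The groups did not overlap, as for 30.0% of genes in this direction. After PBS the difference in B6 was -0.23 ± 0.26 (limma adjusted p = 0.618), again with every CD8+ array below every CD11b+ array (22.6% of genes), and 21.7% of genes were called in either direction. In NOD it was -0.38 ± 0.26 after PBS and -0.19 ± 0.26 after CpG, with limma adjusted p of 0.342 and 0.588 and overlapping groups (21.8% and 38.6% of genes called in either direction). The 2 calls above and the CpG call in B6 share the 3 arrays of CpG-treated B6 CD11b+ cDC.

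Whether the response to CpG differed was tested as an interaction. The response of CD11b+ cDC was smaller in NOD than in B6 by -1.2 ± 0.36 (95% confidence interval -1.95 to -0.45, limma adjusted p = 0.0624, 4.38% of genes called in either direction), which does not pass the threshold after adjustment. The response of B6 cDC was smaller in CD8+ than in CD11b+ cells by -1.06 ± 0.36 (-1.81 to -0.31, limma adjusted p = 0.0564, 13.4% called). The strain difference differed between subsets after CpG by 1.1 ± 0.36 (0.34 to 1.85, limma adjusted p = 0.0864, 5.30% called). In a fit with the replicate number as a block shared by all arrays, the subset interaction in B6 passed (-1.06 ± 0.37, limma adjusted p = 0.0487). Same-numbered arrays deviated together between subsets in B6, but not between CpG and PBS in either B6 subset. The labels do not say what the numbers mean, so this fit does not settle the interaction. The remaining interactions were 0.05 for strain and CpG in CD8+ cDC, 0.19 for subset and CpG in NOD and -0.15 for subset and strain after PBS, with limma adjusted p from 0.795 to 0.999, and 4.02%, 6.80% and 0.882% of genes were called in these.

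**Figure D2:**
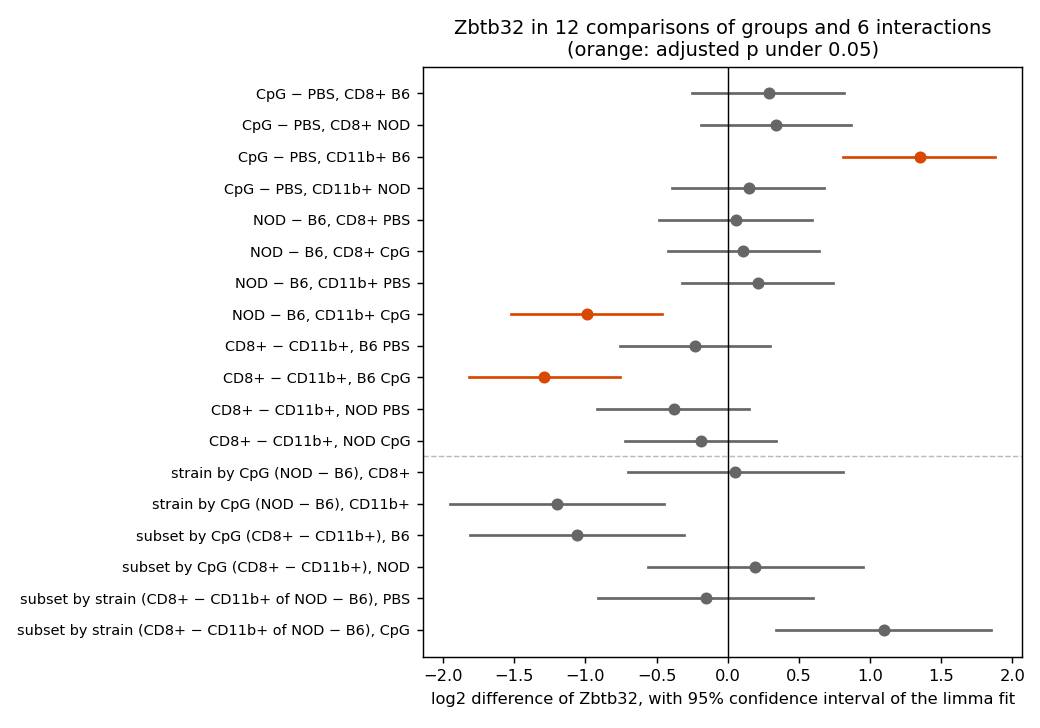
Log2 difference of Zbtb32 (horizontal axis) with its 95% confidence interval in the 12 comparisons of groups and, below the dashed line, the 6 interactions. Orange marks an adjusted p under 0.05: the rise after CpG in B6 CD11b+ cDC (1.35) and the strain (-0.99) and subset (-1.29) differences that rest on the same 3 arrays.

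Averaged over the 4 strata of the other factors, Zbtb32 was 0.53 ± 0.13 higher after CpG than after PBS (limma adjusted p = 0.000961), where 24.6% of genes were called higher. The CD8+ minus CD11b+ average was -0.52 ± 0.13 (limma adjusted p = 0.00148), with 32.9% of genes called lower. The NOD minus B6 average was -0.15 ± 0.13 (limma adjusted p = 0.399), with 30.9% called in either direction. An exact two-sided permutation of labels within strata, over 160000 arrangements, gave p = 0.00619 for CpG, 0.00432 for subset and 0.396 for strain, or 0.00928, 0.00928 and 0.396 adjusted over these 3. These averages combine 1 stratum with a rise of 1.35 and 3 strata with differences of 0.15 to 0.34.

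Of 44 other BTB zinc finger genes tested, 3 rose and 6 fell after CpG in B6 CD11b+ cDC, where 15.9% of all genes were called higher and 23.0% lower. Their median was -0.02 against -0.07 over all genes. Zbtb32 ranked 2 of 45 there, after Zbtb10, which rose by 2.45 ± 0.22. Zbtb8a rose by 1.11 ± 0.15 and Zbtb18, a repressor best known from neural development, by 0.93 ± 0.1. The members that fell were Zbtb44 (-1.03), Gzf1 (-0.55), Patz1 (-0.51), Zbtb20 (-0.44), Hic1 (-0.41) and Zbtb11 (-0.32). Patz1 lost its call without replicate 3 of PBS or replicate 1 or 2 of CpG (-0.47, -0.49 and -0.42).

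Zbtb10 rose after CpG in every subset and strain, by 2.66 in B6 CD8+, 1.5 in NOD CD8+ and 1.2 in NOD CD11b+ cDC, and each of these passed the test. Zbtb32 ranked 15 of 45 in B6 CD8+ cDC. Over the other members, 13 rose and 7 fell in B6 CD8+ cDC, 5 and 6 in NOD CD8+ cDC, and 5 and 2 in NOD CD11b+ cDC. Of all genes, 21.1% were called higher and 36.6% lower in the first, 15.1% and 25.5% in the second, and 9.70% and 5.73% in the third, so that several of these counts are near the overall share. In the strain comparison of CpG-treated CD11b+ cDC, 3 other members were called lower in NOD, Zbtb10 (-1.38), Zbtb18 (-0.73) and Zbtb8a (-0.7). This comparison shares the CpG-treated B6 arrays with the CpG comparison in which these genes rose. Zbtb45 (0.55), Hic1 (0.46) and Zbtb20 (0.39) were called higher. Of all genes, 9.22% were called lower there and 13.9% higher. In the subset comparison of CpG-treated B6 cDC 3 other members were called higher in CD8+ cDC and 4 lower (12.8% of all genes higher and 24.5% lower), and Zbtb32 had the lowest CD8+ minus CD11b+ difference of the 45.

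**Figure D3:**
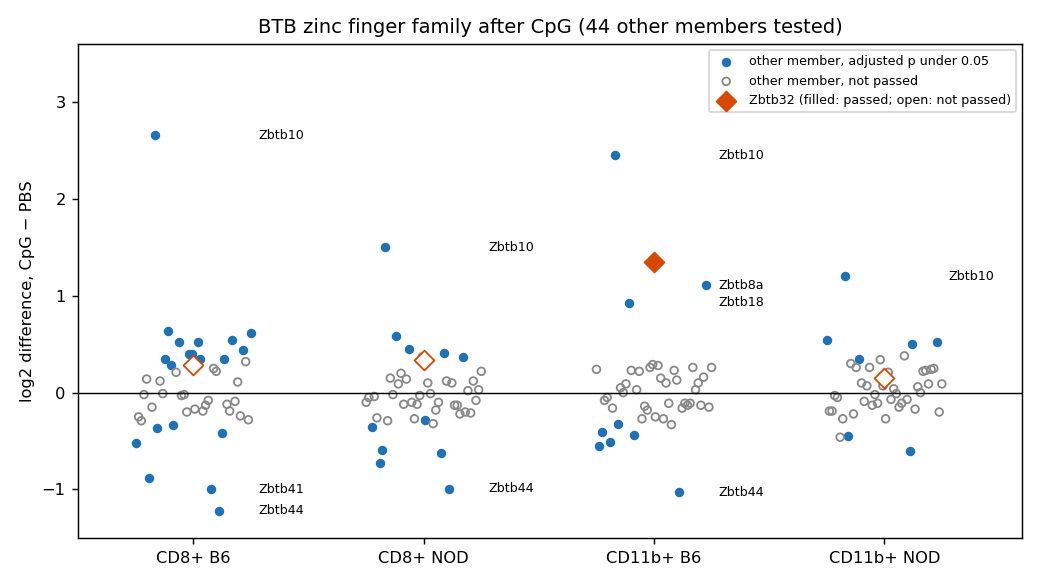
Log2 difference, CpG minus PBS (vertical axis), of the 45 tested BTB zinc finger genes in each subset and strain (horizontal axis), with Zbtb32 as a diamond and other members as circles. Zbtb10 is the highest member in all 4 columns, and the Zbtb32 diamond is filled in B6 CD11b+ cDC (1.35) only.

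Zbtb46, a marker of the conventional dendritic cell lineage, differed by -0.11 ± 0.11 after CpG in B6 CD11b+ cDC (limma adjusted p = 0.464). Bcl6, the repressor of germinal centre B cells that cDC also express, differed by 0.24 ± 0.12 there (limma adjusted p = 0.12) and rose in NOD CD11b+ cDC by 0.54 ± 0.12 (limma adjusted p = 0.0023).

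Of 7 genes listed as partners of the Zbtb32 protein, 3 were tested, and after CpG in B6 CD11b+ cDC 2 rose and 1 fell, in a comparison that called 15.9% of all genes higher and 23.0% lower. Prdm1 was 6.05, 5.84 and 5.79 after PBS and 6.32, 7.87 and 6.39 after CpG, and rose by 0.97 ± 0.25 (limma adjusted p = 0.0032). Replicate 2 is the highest array for Prdm1, as it is for Zbtb32, and without it the Prdm1 difference was 0.46 ± 0.14 (limma adjusted p = 0.0149). Fancc rose by 0.64 ± 0.13 and Txnip fell by 1.53 (limma adjusted p = 0.000523 and 1.37e-07). In NOD CD11b+ cDC the same differences were 0.38, -0.02 and -0.45 for Prdm1, Fancc and Txnip, and none passed.

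The other listed partners, among them Zbtb16 (PLZF), lay below the filter on low values. Gata3, the T cell factor that Zbtb32 was described to repress, was below the filter as well. It lay between 5.72 and 6.29 in CpG-treated B6 CD11b+ cDC, above the array median on 2 of 3 arrays, and below the median on every array of the other groups.

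Ciita, which drives the MHC class II genes, fell by 1.23 ± 0.2 after CpG in B6 CD11b+ cDC, from 10.19, 10.06 and 10.19 to 8.85, 8.71 and 9.17 (limma adjusted p = 2.82e-05). In NOD CD11b+ cDC it went from 10.32, 10.05 and 10.16 to 9.77, 9.95 and 10.05, a difference of -0.25 ± 0.2 (limma adjusted p = 0.457). Ciita also differed by -1.86 in B6 CD8+ and by -1.13 in NOD CD8+ cDC, both called. The part of Zbtb32 in these falls was not tested.

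Of 9 MHC class II presentation genes tested, Ciita among them, 8 fell and none rose after CpG in B6 CD11b+ cDC, 8 fell in B6 CD8+ and 6 in NOD CD8+ cDC, and 1 rose (H2-Eb2, 0.45) and 1 fell (H2-Ob) in NOD CD11b+ cDC. The medians were -0.5, -0.63, -0.38 and -0.03, against 23.0%, 36.6%, 25.5% and 5.73% of all genes called lower. H2-Ob, a chain of the peptide loading modulator H2-O, changed by -2.47 in B6 and by -0.59 in NOD CD11b+ cDC, and the latter call ended without replicate 1 of CpG (-0.51, limma adjusted p = 0.0835). H2-DMa fell by 1.39 and H2-Oa fell by 1.18 in B6 CD11b+ cDC. In the strain comparison of CpG-treated CD11b+ cDC, 7 of the 9 were higher in NOD, with a median of 0.73, where 13.9% of all genes were called higher. Whether the probes of these genes read the alleles of both strains equally well was not examined.

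The identity markers of the sorted subsets also changed after CpG. The mean of the 9 MHC class II genes went from between 11.39 and 11.49 to between 10.38 and 10.69 in B6 CD11b+ cDC. In NOD CD11b+ cDC it went from between 11.26 and 11.34 to between 11.19 and 11.29. After CpG in B6 CD11b+ cDC 9 of 13 tested markers of CD11b+ cDC fell and 1 rose, and their mean over 14 genes went from between 8.2 and 8.39 to between 6.85 and 7.09, while NK cell genes rose. The NOD CD11b+ groups had 6 that fell and 2 that rose, and the mean went from between 8.16 and 8.41 to between 7.47 and 7.61. Of 16 markers of CD8+ cDC, 14 fell and 1 rose in B6 CD8+ cDC, with a mean from between 10.34 and 10.49 to between 8.88 and 9.35. In NOD CD8+ cDC 12 fell and 1 rose, with a mean from between 10.41 and 10.53 to between 9.26 and 10.14. Of all genes, 23.0%, 5.73%, 36.6% and 25.5% were called lower in these comparisons, in the order given. The shares called higher were 15.9%, 9.70%, 21.1% and 15.1%. The part of a changed cell composition in the MHC class II values was not tested.

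Of 11 genes listed as described targets of Zbtb32, 6 were tested. After CpG in B6 CD11b+ cDC 2 of them rose (Ifng and Prdm1), 1 fell (Ciita) and 3 were not called (Il13, Zeb1 and Ccnd1). In that comparison 15.9% of all genes were called higher and 23.0% lower. None of the 6 was called in NOD CD11b+ cDC. The cytokine gene Ifng rose by 3.81 ± 0.22 in B6 CD11b+ cDC, from between 5.1 and 5.21 to between 8.32 and 9.7. In NOD CD11b+ cDC its difference was 0.44 ± 0.22 (limma adjusted p = 0.218). Of the 16 corepressor genes tested, the machinery through which BTB proteins act, 3 rose and 7 fell in B6 CD11b+ cDC, and 3 rose and 4 fell in NOD CD11b+ cDC. Of all genes, 15.9% and 23.0% were called higher and lower in B6, near the share of risers on this list, and 9.70% and 5.73% in NOD. In B6 CD11b+ cDC the histone deacetylase gene Hdac9 fell by 1.31, Tbl1x rose by 0.98 and its relative Tbl1xr1 fell by 0.77.

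Of 18 other repressor genes of lymphoid and myeloid cells, 9 rose, Prdm1 among them, and 2 fell in B6 CD11b+ cDC, Ikzf1 (-0.4) and Tle4 (-0.29). Of the same genes 5 rose and none fell in NOD CD11b+ cDC. Over all genes 15.9% were called higher and 23.0% lower in B6 and 9.70% and 5.73% in NOD. Nfil3, a factor needed for NK cell and CD8+ cDC development, rose by 2.09 ± 0.21 in B6 CD11b+ cDC and differed by 0.16 ± 0.21 in NOD. Etv3 rose by 1.31 and 1.36 in the 2 strains. Ikzf3, a lymphocyte factor, rose by 1.02 ± 0.35 in B6 CD11b+ cDC, a call lost without replicate 1 of PBS or replicate 1 or 2 of CpG (0.92, 1.03 and 0.81).

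Markers of NK cells were high on the same 3 arrays as Zbtb32. The mean log2 value of 20 NK cell genes was 9.34, 9.97 and 9.12 in CpG-treated B6 CD11b+ cDC. It lay between 6.85 and 7.42 after PBS in the same cells, between 7.16 and 7.32 in CpG-treated and 6.24 and 6.39 in PBS-treated NOD CD11b+ cDC, and between 6.1 and 6.91 in the CD8+ groups. Within CpG-treated B6 CD11b+ cDC the 3 arrays had the same order for this mean as for Zbtb32.

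After CpG in B6 CD11b+ cDC 18 of the 20 NK cell genes rose and 2 fell, Cd7 (-1.37) and Klrd1 (-0.63), with a median of 2.3. In NOD CD11b+ cDC 9 rose and none fell (median 0.66), in B6 CD8+ cDC 6 rose and 2 fell, and in NOD CD8+ cDC 5 rose and 1 fell. The shares of all genes called higher were 15.9% in B6 CD11b+, 9.70% in NOD CD11b+, 21.1% in B6 CD8+ and 15.1% in NOD CD8+ cDC. All 20 lay above the array median on all 3 arrays of CpG-treated B6 CD11b+ cDC, against 13 in PBS-treated B6 CD11b+ cDC. Among NOD CD11b+ cDC 8 did so after PBS and 12 after CpG, and in the CD8+ groups between 7 and 10. Of the 20, 6 passed the filter on low values only through CpG-treated B6 CD11b+ cDC, and those had to differ.

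Ncr1, which encodes the NK cell receptor NKp46, was 9.92, 10.49 and 9.33 in CpG-treated B6 CD11b+ cDC against 6.13, 6.78 and 6.12 after PBS, and 4.92, 5.81 and 6.06 in CpG-treated NOD CD11b+ cDC. Klrb1c (NK1.1), whose B6 allele is the standard NK marker, rose by 3.42 ± 0.28 in B6 CD11b+ cDC and differed by 0.11 ± 0.28 in NOD. Whether the probes read the NOD and B6 alleles equally well was not examined, for this or any other gene compared between strains. The granzyme gene Gzmb rose by 6.5 ± 0.29 in B6 CD11b+ cDC and by 3.42 ± 0.29 in NOD CD11b+ cDC, and Nkg7 by 4.1 and 2.92. The T cell receptor chain gene Cd3e differed by -0.02 ± 0.17 in B6 CD11b+ cDC (limma adjusted p = 0.954), and of 9 T cell genes Cd28 (1.86), Cd247 (0.73) and Lat (0.49) rose and Cd5 (-1) fell. In this comparison 15.9% of all genes were called higher and 23.0% lower. The part of NK cells in the Zbtb32 rise was not tested.

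In NOD CD11b+ cDC, where replicate 3 had the highest Zbtb32 under both injections, the B cell genes were also highest on replicate 3. The mean of 11 B cell genes was 7.06, 7.63 and 8.09 after PBS and 6.76, 7.53 and 7.83 after CpG. The mean of 8 plasma cell genes, Prdm1 included, was 6.63, 6.76 and 7.04 after PBS and 6.56, 6.81 and 7.04 after CpG. The highest B cell means of all were in PBS-treated NOD CD8+ cDC (8.49 and 8.54), where Zbtb32 was 5.98 and 6.47. The part of B cell RNA in the Zbtb32 values of NOD CD11b+ cDC was not tested. The proliferation gene Mki67 fell by 0.69 after CpG in B6 CD11b+ cDC, a call lost without replicate 1 of CpG (-0.61, limma adjusted p = 0.0526).

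**Figure D4:**
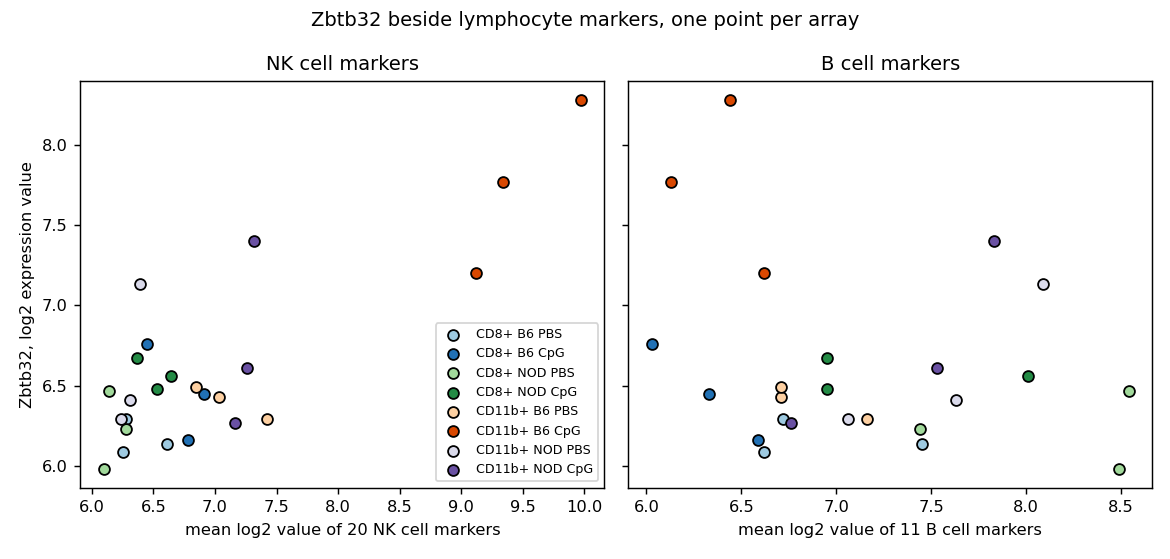
Zbtb32 (vertical axis, log2 value) against the mean log2 value of 20 NK cell genes (left) and 11 B cell genes (right), one point per array, coloured by group. On the left the 3 arrays of CpG-treated B6 CD11b+ cDC stand apart from the other 21, at an NK mean of 9.12 to 9.97; on the right they lie among the lowest B cell means.

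Among the genes tested, the 12 with the pattern most like Zbtb32 by Pearson r over 24 arrays were Itga2 (0.9), Hsd11b1 (0.88), Gimap4 (0.87), Gimap8 (0.86), Dok2 (0.86), Prag1 (0.86), Car2 (0.85), Prf1 (0.83), Gimap7 (0.82), Fasl (0.82), Zap70 (0.81) and Prkcq (0.81). The arrays share groups, and these values are a description. The median r over all other genes was -0.03. Itga2, the integrin chain of the NK marker DX5, was 8.14, 8.66 and 7.49 in CpG-treated B6 CD11b+ cDC and between 5.05 and 5.99 elsewhere. Prf1 encodes perforin and Fasl the Fas ligand, both used in killing by lymphocytes, and Zap70 and Prkcq are kinases of lymphocyte receptor signalling.

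Of the 12, 5 passed the filter on low values only through CpG-treated B6 CD11b+ cDC. Over the other 21 arrays, a set picked once these values were known, r of these 12 ran from 0.07 (Prkcq) to 0.8 (Itga2), and 3 of them stayed among the first 12. The 20 NK cell genes had a median r of 0.75, and 14 were among the 100 genes with the highest r. Of these 20, 6 passed the filter on low values only through CpG-treated B6 CD11b+ cDC, where Zbtb32 is high. A high r of those 6 follows in part from the filter, and so do the median and the count. The r of the mean of the 20 with Zbtb32 was 0.81 over 24 arrays and 0.29 over 21. For the plasma cell mean it was 0.18 and 0.59, and for the type I interferon mean 0.52 and 0.39. For T cell, B cell and proliferation genes it was 0.6, -0.24 and 0.21 over 24 arrays and 0.17, 0.16 and -0.02 over 21. The plasma cell list includes Prdm1 (r 0.78 over 24 arrays), and its other tested members ran from -0.14 (Mzb1) to 0.29 (Irf4) over the same 24. The r of single members over 21 arrays is not given, so these values do not say which members the 0.59 rests on. The lowest r were those of Adam19 (-0.8), Use1 (-0.8), Rnf144b (-0.78), Slc16a11 (-0.76) and Lrrc45 (-0.76).

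**Figure D5:**
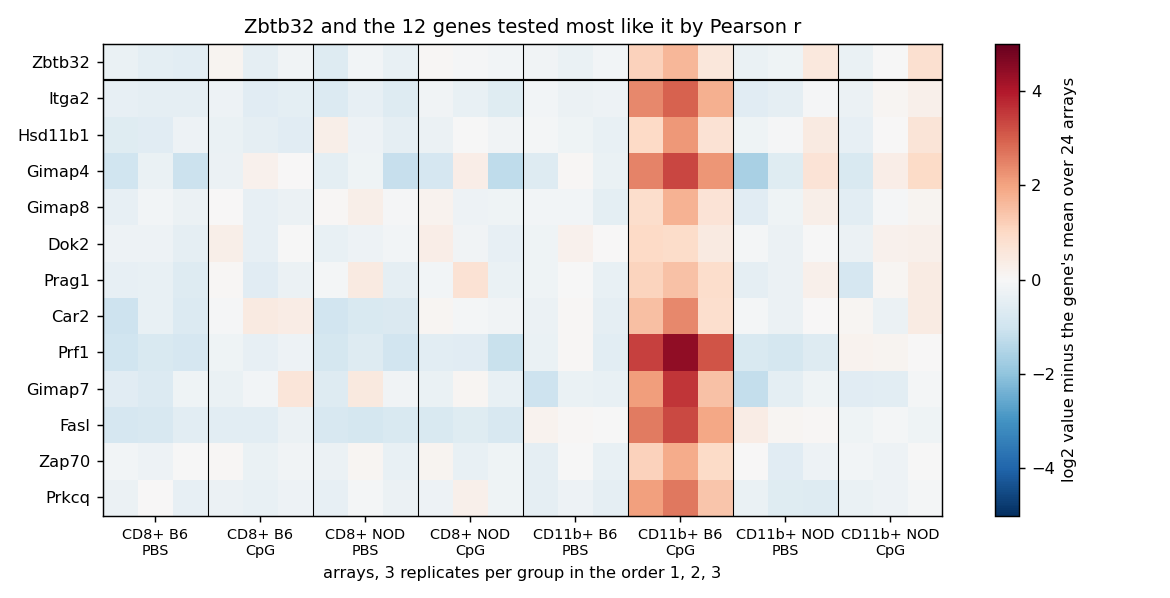
Log2 value minus the gene's mean over 24 arrays (colour) for Zbtb32 (top row) and the 12 genes most like it (rows), by array in 8 groups of 3 (columns). The 3 columns of CpG-treated B6 CD11b+ cDC are the highest for nearly all rows, and the top row and Itga2 share the order of those 3 arrays.

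On chromosome 7, of the 16 nearest genes with a probe set, 8 on each side in RefSeq order, 10 were tested. After CpG in B6 CD11b+ cDC none of them rose and 1 fell in the limma fit, with a median of -0.03, where 15.9% of all genes were called higher and 23.0% lower. So few genes cannot be set apart from that share. That gene was Haus5, of the augmin complex of the spindle, which fell by 0.43. Kmt2b, the histone methyltransferase gene adjacent to Zbtb32, differed by -0.23 ± 0.13 (limma adjusted p = 0.175). The r of the 10 with Zbtb32 over 24 arrays lay between -0.14 (Lin37) and 0.47 (Psenen). RefSeq also places the long noncoding RNA gene Gm32082 across Zbtb32. Whether the probes of the Zbtb32 probe set lie in their shared part was not examined.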

How the data were processed

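Log2 expression values were used as deposited; the submitters' processing notes name RMA and Partek, without versions, for how the authors made them. The labels name a GeneChip Mouse Genome array, whereas the probe set identifiers match the annotation of a whole-transcript gene array, so the array model is unsettled. Only probe sets annotated to 1 symbol entered, the highest mean standing for a gene with several, which gave 19938 genes. A gene was tested where it exceeded the median of the array on 3 or more of 24 arrays.

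In R 4.3.3, limma 3.58.1 fitted a mean per group over all 24 arrays, with eBayes and its trend. The 21 contrasts were tested two-sided, with Benjamini-Hochberg adjustment over the 11228 genes within each contrast at 0.05. Version 1.17.8 of data.table and statmod 1.5.0 (for the random block) were used. In data simulated for the CpG comparison of B6 CD11b+ cDC over 11228 genes, 44.8% of changes of 0.5, 94% of 1 and 100% of 2 (log2) were called. Each simulated gene kept its own SD within groups, with a median of 0.18 against 0.36 for Zbtb32. Only 67, 67 and 66 genes were changed at these sizes, whereas 15.9% of genes were called higher and 23.0% lower in the deposited values. The adjustment is stricter where fewer genes change. These rates are therefore neither those of Zbtb32 nor those of the deposited comparison.

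The gene, the lists and the tests were chosen with earlier results of these data known. Text names the listed genes of interest, per list up to 6 called genes with the largest change and up to 3 uncalled ones with the highest mean, the 12 highest and 5 lowest r, and genomic neighbours. Same-numbered arrays deviated together (every r over 0.1) in 8 of 12 comparisons: CpG in NOD CD8+ and NOD CD11b+ cDC, the strains in CD8+ cDC, and all comparisons of subsets. The labels do not say what these numbers mean. Alternatives were other filters, probe set choice, normalizations, eBayes settings, array weights, fits restricted to the compared groups, replicate blocks and each array left out. The likeness over 21 arrays was added after seeing the data. Coordinates and windows are RefSeq's for GRCm38.p6, used for position and sequence only.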

Additional observations from a re-analysis of the deposited data

Results flagged for a closer look

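These results were singled out because the response to CpG differed by the interaction test itself, over 14 genes examined for it. In CD11b+ cDC the response was smaller in NOD than in B6 for Ifng (-3.37, limma adjusted p = 5.23e-07), Klrb1c (-3.31, 1.93e-05), Gzmb (-3.08, 6.96e-05), Prf1 (-3.08, 2.02e-06), Ncr1 (-2.28, 0.00072), Zbtb10 (-1.25, 0.0182), Zbtb18 (-0.59, 0.0146) and Fancc (-0.66, 0.0477). The response was a fall in B6 that was smaller in NOD for Txnip (1.08, limma adjusted p = 0.00886) and Ciita (0.98, 0.0483). The interactions of Fancc and Ciita ended under several alternatives, with an adjusted p of 0.0716 and 0.0647 without a filter. That of Zbtb10 ended without replicate 3 of PBS-treated B6 (-1.15) or of CpG-treated NOD CD11b+ cDC (-1.05), and that of Zbtb18 under median centring (-0.52).

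In B6 the response to CpG was smaller in CD8+ than in CD11b+ cDC for Klrb1c (-3.54, limma adjusted p = 2.56e-06), Prf1 (-3.38, 3.66e-07), Gzmb (-3.31, 9.48e-06), Ifng (-3.18, 5.29e-07), Ncr1 (-3.16, 5.64e-06), Nkg7 (-3.07, 2.31e-05) and Zbtb8a (-0.79, 0.0133). Of the 14 genes, 10 passed the strain interaction and 7 the subset interaction, against 4.38% and 13.4% of all genes. The 14 were picked among genes named in this report, so these counts do not measure how common such interactions are. Some were named for a large change, or for likeness to Zbtb32, that rests on the same CpG-treated B6 CD11b+ arrays. Their interaction p-values are therefore not independent evidence. Of the 20 NK cell genes, 6 passed the filter on low values only through those arrays and had to differ. Prf1 is among the genes most like Zbtb32, and NK cell genes were high on the CpG-treated B6 CD11b+ arrays that both interactions use. The strain interaction of Zbtb32 (-1.2), Nkg7 (-1.18), Zbtb8a (-0.59) and Prdm1 (-0.59) did not pass (limma adjusted p from 0.0624 to 0.401). Neither did the subset interaction of Zbtb32 (-1.06), Prdm1 (-0.84), Ciita (-0.63), Zbtb18 (-0.29), Txnip (-0.12), Fancc (-0.07) and Zbtb10 (0.21), with limma adjusted p from 0.0564 to 0.841.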

How the results depend on the processing

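Under 11 other settings, from filters to blocks, Zbtb32 rose by 1.16 to 1.39 after CpG in B6 CD11b+ cDC (limma adjusted p 0.000145 to 0.000348). The strain difference after CpG in CD11b+ cDC was -1.02 to -0.84 and the subset difference in CpG-treated B6 cDC -1.32 to -1.22, all called. Only interactions changed their call, the cause of which was not tested. Array weights gave -1.14 for strain and CpG in CD11b+ cDC (limma adjusted p = 0.0265), -0.98 for subset and CpG in B6 (0.0398) and 1.05 for subset and strain after CpG (0.0248). These weights did not converge fully, and 1 array had a weight of 12.48. Subset and CpG in B6 also passed in a fit of only the groups compared (-1.06, limma adjusted p = 0.0199). With the replicate block it was -1.06 (0.0487) and with a random replicate block -1.06 (0.0441). The latter gave -1.2 (0.0469) for strain and CpG in CD11b+ cDC. The block changed no other call of Zbtb32.

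Leaving out 1 array at a time, the differences of Zbtb32 ranged as follows. CpG minus PBS ran from 0.13 to 0.44 (B6 CD8+), 0.22 to 0.46 (NOD CD8+) and -0.18 to 0.4 (NOD CD11b+). NOD minus B6 ran from -0.07 to 0.18 (CD8+, PBS), -0.04 to 0.26 (CD8+, CpG), -0.05 to 0.37 (CD11b+, PBS) and -1.31 to -0.72 (CD11b+, CpG). CD8+ minus CD11b+ in NOD ran from -0.54 to -0.13 (PBS) and -0.44 to 0.13 (CpG). The interactions ran from -0.09 to 0.21 and -1.52 to -0.94 (strain and CpG, CD8+ and CD11b+), -1.34 to -0.79 and -0.06 to 0.52 (subset and CpG, B6 and NOD), and -0.31 to 0.1 and 0.83 to 1.42 (subset and strain, PBS and CpG).

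Of 4424 recomputed differences of other named genes called, 181 lost the call and none changed sign. Of 132 recomputed counts of genes called, 7 moved by over 1.5 times, with array weights or with only the groups compared, and of 924 counts of list members 57 did. With a filter of 12 arrays 12 NK cell genes were called after CpG in B6 CD11b+ cDC, since fewer were tested. Of the 12 genes most like Zbtb32, 3 were shared under Spearman's rho, 7 with group means and 12 under median centring. With 3 arrays per group and 1 probe set, differences of about 0.5 may be missed, and genes near background cannot be compared.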
